A study of Mus musculus with 6 samples.

Results

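The miR-146 family of the mouse consists of 2 hairpins, mir-146a and mir-146b, each of which can release a 5p and a 3p strand. All 4 mature strands, mmu-miR-146a-5p, mmu-miR-146b-5p, mmu-miR-146a-3p and mmu-miR-146b-3p, were taken by name from a table of 1414 rows (1104 known mouse miRNA arms and 310 predicted ones). Small RNA of 18 to 30 nt was sequenced from pancreas of wild-type C57BL/6 mice weighing 22 to 25 g. The model group (libraries 56, 57 and 59) had received 7 hourly intraperitoneal injections of caerulein at a labelled 50 mg/kg, with lipopolysaccharide (LPS) added to the last one. The control group (libraries 43, 44 and 45) had received saline instead. Tissue was collected 24 hours after the first injection in both groups. The labels give neither age nor sex. No group received caerulein or LPS alone, so the effects of each agent cannot be told apart. Whether each library is 1 mouse is not stated in the labels, so the spread behind every p-value here may be partly technical.

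miR-146a is known as a feedback inhibitor of innate immune signalling. Bacterial products such as LPS act on Toll-like receptors (TLR), which activate the transcription factor NF-kB through the signalling proteins IRAK1 and TRAF6. NF-kB switches on miR-146a, and miR-146a binds the messenger RNAs of Irak1 and Traf6 and lowers their proteins. miR-146b has the same seed, the stretch near the 5′ end through which a miRNA recognises its targets, and is also induced in stimulated myeloid cells. Caerulein, an analogue of the gut hormone cholecystokinin, overstimulates the acinar cells that make digestive enzymes and is a standard means of inducing acute pancreatitis.

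The mature sequences are shown because the comparison between the guide strands turns on how little they differ. Bases 2 to 8, the seed, are in capitals, and all 4 sequences in the table were identical to those of RefSeq for GRCm38.p6.
mmu-miR-146a-5p: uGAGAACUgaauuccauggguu
mmu-miR-146b-5p: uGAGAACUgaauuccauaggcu
mmu-miR-146a-3p: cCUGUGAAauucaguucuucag
mmu-miR-146b-3p: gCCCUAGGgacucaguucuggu
Counting from 1 at the 5′ end, the 5p strands were identical from base 1 to base 17 and differed at 2 of 22 positions, G18A and U21C (miR-146a base first). No other row of the table carried their seed. The seed of each 3p strand occurred in 1 row, its own. Reads from base 1 that end before base 18 would fit either 5p strand. Such reads are shorter than the selected 18 to 30 nt. Reads that reach base 18 but not base 21 differ at 1 position only. The labels do not say how reads of either kind were assigned.

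The hairpins, with both mature strands in capitals, come from the deposited table and were identical to the RefSeq entries Mir146 and Mir146b. They are shown to place each strand on its arm.
Mir146: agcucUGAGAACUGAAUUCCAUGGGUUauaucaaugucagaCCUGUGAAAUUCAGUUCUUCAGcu
Mir146b: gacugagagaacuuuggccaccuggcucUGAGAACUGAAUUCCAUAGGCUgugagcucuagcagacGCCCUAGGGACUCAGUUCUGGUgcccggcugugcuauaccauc
In GRCm38, Mir146, the gene of miR-146a, lies at chr11:43374397-43374461 on the minus strand. No other GENCODE M21 gene overlaps it, and the nearest is the noncoding Gm12148, 11021 bases away on the opposite strand. Mir146b lies at chr19:46342762-46342870 on the plus strand, in intron 1 of a transcript of the protein-coding gene Mfsd13a that runs in the same direction.

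Total counts were 2489009 to 3006220 in model libraries and 1943693 to 2629801 in control libraries, and a count of 0 allowed up to 0.897 to 1.80 CPM. CPM values are counts scaled to a common library total with TMM factors, which set the typical miRNA equal between libraries. The labelled tissue carried its markers, since islet miR-375-3p had at least 30851 CPM in every library, and acinar miR-148a-3p and miR-216a-5p had at least 20423 and 19256 CPM. Of 499 rows that passed the filter on low counts, edgeR's quasi-likelihood test with Benjamini-Hochberg adjustment called 1.20% at an adjusted p under 0.05. Calls higher in the model group made up 1.00% of tested rows. In 14.4% of tested rows all 3 model libraries lay above all 3 controls. These shares are the background for the counts below. The tissue was measured in bulk, so a different number of cells of a type and a different amount of RNA per cell cannot be told apart.

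Both 5p strands had higher mean levels in the pancreatitis model than in the saline control, by a fitted 1.66-fold for miR-146a-5p and 2.56-fold for miR-146b-5p, and neither passed the threshold over all tested rows. For miR-146b-5p every model library lay above every control, as in 14.4% of tested rows, while for miR-146a-5p the groups overlapped. Hardly any 3p strand was counted in either group.

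miR-146a-5p, the main effector of the feedback loop, had 2196, 5417 and 3369 CPM in model libraries 56, 57 and 59, against 2848, 1872 and 1891 CPM in control libraries 43, 44 and 45. Model library 56 lay below control library 43, and the other 2 model libraries lay above all controls. The mean was 3661 ± 1630 CPM in model and 2204 ± 558 CPM in control libraries (SD, n = 3 each). The log2 fold change of 0.73 (SE 0.35) had an edgeR adjusted p = 0.246. Its unadjusted p was 0.0704, and 142 of the tested rows had a lower one. Without model library 57 the log2 fold change was 0.37 (edgeR adjusted p = 0.569), and without model library 56, the lowest of its group, it was 1.04 (edgeR adjusted p = 0.195).

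miR-146b-5p, the less abundant relative, had 403, 963 and 726 CPM in model libraries 56, 57 and 59, against 265, 243 and 309 CPM in control libraries 43, 44 and 45. The lowest model library, 56, stood above the highest control, 45, and model library 57 was again the highest of all. Mean levels were 697 ± 281 CPM in the model and 272 ± 33.7 CPM in the control group (SD, n = 3 each). The log2 fold change was 1.36 (SE 0.34), with an edgeR adjusted p = 0.0774 and an unadjusted p of 0.00434. Of the 212 rows with a mean of at least 100 CPM, 7 had a higher log2 fold change. Under other processing the adjusted p fell below 0.05 in some fits and above it in others, with 0.00736 in DESeq2, 0.0496 with total counts alone and 0.209 without model library 59.

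**Figure D1:**
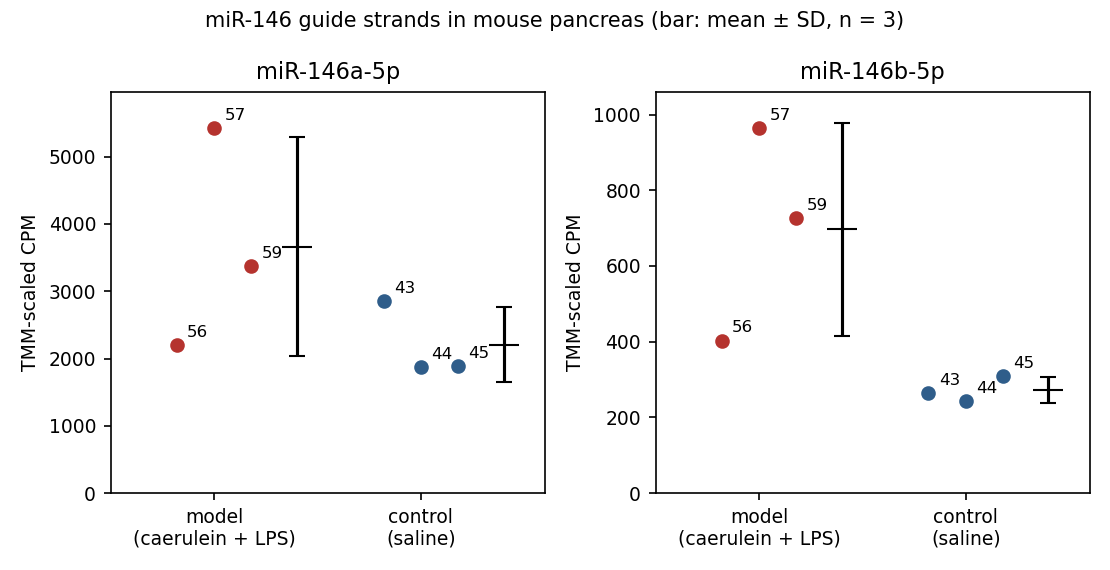
TMM-scaled CPM of miR-146a-5p (left) and miR-146b-5p (right) in each library, with model libraries in red and control libraries in blue, labelled by replicate number; black bars are the mean ± SD of 3 libraries. For miR-146b-5p all model points (403 to 963 CPM) sit above all control points (243 to 309 CPM), while for miR-146a-5p model library 56 (2196 CPM) sits below control library 43 (2848 CPM).

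The spread among model libraries was wide for both strands. The coefficient of variation was 44.5% in model and 25.3% in control libraries for miR-146a-5p. For miR-146b-5p it was 40.3% in model and 12.4% in control libraries. The median over the 212 rows of at least 100 CPM was 15.4% in model and 20.1% in control libraries, and 23 of those rows varied more in the model group than miR-146a-5p did.

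An order by count within each library needs no scaling between libraries. Among 1414 rows, miR-146a-5p held rank 71, 44 and 58 in model libraries 56, 57 and 59, against rank 62, 81 and 76 in control libraries 43, 44 and 45. The ranks of miR-146b-5p were 136, 101 and 116 in those model libraries and 150, 153 and 140 in the controls. The ranks gave the same picture as CPM, with an overlap between the groups for miR-146a-5p and none for miR-146b-5p.

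**Figure D2:**
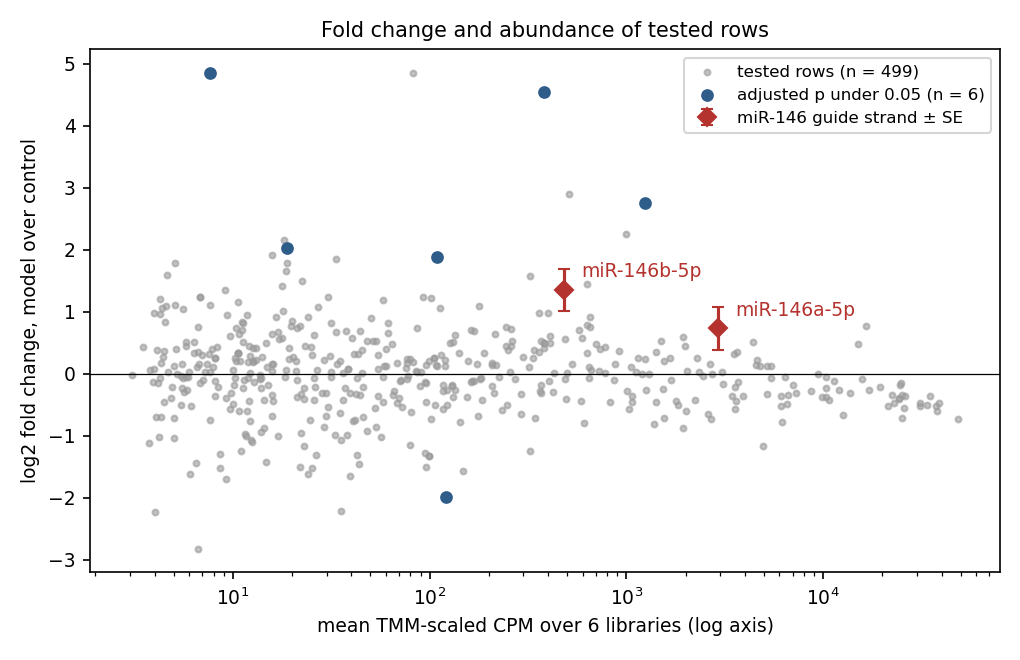
Log2 fold change of model over control against mean TMM-scaled CPM (log axis) for the 499 tested rows (grey), with the 6 called rows in blue and the miR-146 5p strands in red with their SE. miR-146b-5p (1.36) and miR-146a-5p (0.73) lie above most rows of like abundance, and neither is among the called rows.

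At the abundance of miR-146a-5p most rows had small negative fold changes. The 99 rows with a mean of at least 1000 CPM had a median log2 fold change of -0.27, and 2 of them had a higher one than miR-146a-5p. The median over all tested rows was 0.0050.

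The seed-sharing strands together made up 0.282%, 0.692% and 0.475% of counts in model libraries 56, 57 and 59, and 0.307%, 0.182% and 0.189% in control libraries 43, 44 and 45. In the sum the groups overlapped, through model library 56 and control library 43. Summed levels averaged 4358 ± 1904 CPM in model and 2476 ± 553 CPM in control libraries (SD, n = 3 each). miR-146a-5p formed most of this pool throughout, at 4.64 to 5.62 counts for each count of miR-146b-5p in model libraries and 6.11 to 10.8 in control libraries.

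In the balance between the 5p strands the groups did not overlap. miR-146b-5p made up 15.5%, 15.1% and 17.7% of the counts of both in model libraries 56, 57 and 59, against 8.50%, 11.5% and 14.1% in control libraries 43, 44 and 45. The highest control, library 45, had a 95% exact (Clopper-Pearson) binomial interval of 13.0% to 15.2%, which overlapped that of model library 57, 14.6% to 15.6%. Such intervals cover counting error only.

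The shares averaged 16.1% ± 1.42 in model and 11.4% ± 2.78 in control libraries (SD, n = 3 each). On the log2 scale the ratio of miR-146b-5p to miR-146a-5p was 0.61 higher in the model group, a 1.53-fold difference. A two-sided exact permutation test over libraries gave p = 0.1, the smallest that this test can reach with 3 libraries against 3, so it could not fall below 0.05. It is the only test of this kind made here. Because the groups did not overlap, the difference was bound to keep its sign without any 1 library. It ran from 0.39 without control library 43 to 0.80 without control library 45. The value was thus over 1.5 times smaller without control library 43 than with it. Since both strands are counted in the same library, the ratio does not depend on scaling between libraries.

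**Figure D3:**
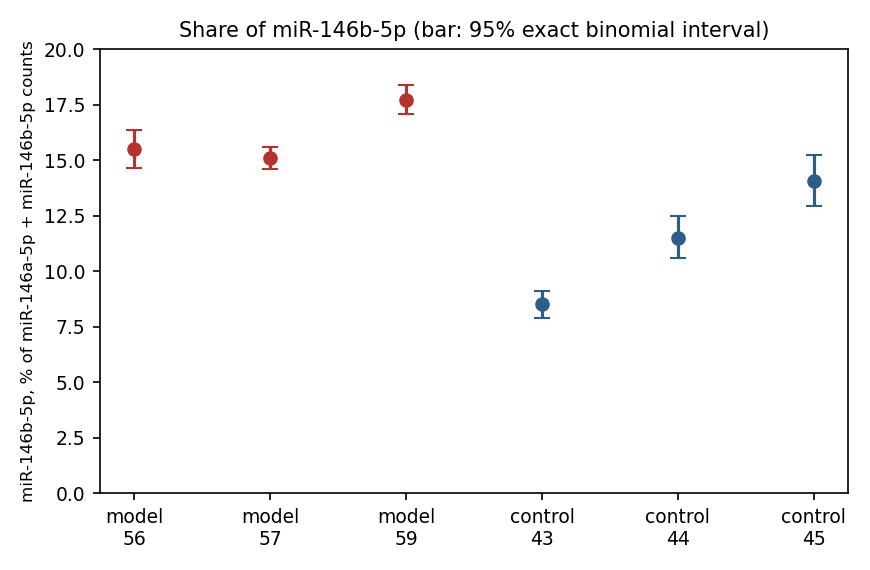
miR-146b-5p as a percentage of the counts of miR-146a-5p and miR-146b-5p together in each library, with model libraries in red and control libraries in blue; bars are 95% exact binomial intervals. Model libraries lie at 15.1% to 17.7% and control libraries at 8.50% to 14.1%, and the control libraries differ among themselves by more than their intervals.

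The 3p strands, the passenger strands of both hairpins, were at the edge of detection. mmu-miR-146a-3p had 2 counts in model library 56 and 0 in the other 5 libraries. mmu-miR-146b-3p had 1, 3 and 0 counts in model libraries 56, 57 and 59, and 1, 0 and 2 counts in control libraries 43, 44 and 45. Neither passed the filter on low counts, so 2 of the 4 strands were tested for a difference between the groups, and 0 of those 2 were called. No difference in a 3p strand was detectable at this depth.

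Over all 6 libraries the 3p strand was 2 of 49253 counts of mir-146a, or 0.00406% (95% Clopper-Pearson interval 0.000492% to 0.0147%). For mir-146b it was 7 of 8366 counts, or 0.0837% (interval 0.0336% to 0.172%). The 3p strand of mir-146a thus held a smaller part of its hairpin's pooled counts than that of mir-146b, with intervals that do not overlap. These intervals pool all libraries and cover counting error only, not the spread between libraries. By group, the 3p share of mir-146b was 4 of 6660 counts in model and 3 of 1706 counts in control libraries. For mir-146a it was 2 of 34859 counts in model and 0 of 14394 counts in control libraries, the second of which allows a share of up to 0.0208% by a limit of 3 counts and up to 0.0256% by the Clopper-Pearson interval. Among 153 known hairpins with both arms in the table and at least 1000 counts, the median share of the scarcer arm was 1.34%. From the most one-sided hairpin on, mir-146a ranked 5 and mir-146b 23.

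Other miRNAs that TLR and NF-kB signalling is known to induce were read beside them. The list held both arms of miR-155, miR-147, miR-21a, miR-132, miR-212, miR-9, miR-187 and miR-301a, of which 15 were in the table and 13 passed the filter. It was drawn up with earlier results of these data known. By edgeR's adjusted p, 3 of the 13 arms were higher in the model group and 0 were lower, against 1.00% of all tested rows called higher. Their median log2 fold change was 1.07, against 0.0050 over all tested rows. Model libraries all lay above the controls in 8 of the 13 arms, beside 14.4% of all tested rows. Of the 13 log2 fold changes 11 were positive with TMM factors and with total counts alone, 10 with upper quartile factors, and all 12 that were tested with the authors' library totals.

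The called members were miR-21a-3p, the passenger strand of an injury-induced hairpin, miR-147-3p, a TLR-induced regulator in macrophages, and miR-212-5p, which is processed from the same transcript as miR-132. miR-21a-3p had 1037, 559 and 613 CPM in model libraries 56, 57 and 59, against 49.7, 19.5 and 24.6 CPM in control libraries 43, 44 and 45 (log2 fold change 4.55, edgeR adjusted p = 0.0077). miR-147-3p had 138 counts in the model and 3 in the control group, a ratio of TMM-scaled rates of 31.2 with an exact 95% interval of 10.5 to 153 for counting error (edgeR adjusted p = 0.0273). miR-212-5p had 30.0, 29.4 and 31.7 CPM in model libraries 56, 57 and 59, against 9.24, 6.82 and 6.00 CPM in control libraries 43, 44 and 45 (log2 fold change 2.03, edgeR adjusted p = 0.0207). Leaving out 1 library at a time, miR-21a-3p kept its call in all 6 fits. The call was lost in 4 of 6 fits for miR-147-3p, with an adjusted p of up to 0.117 without model library 57, and in 5 of 6 for miR-212-5p, with up to 0.101 without the same library. With edgeR's newer quasi-likelihood dispersion miR-147-3p did not pass (adjusted p = 0.0697). The list's count of 3 calls fell to 1 without model library 57, control library 44 or control library 45.

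The other 10 arms did not pass. miR-155-5p, which acts in activated leukocytes, had a log2 fold change of 2.91 (edgeR adjusted p = 0.0564), and its adjusted p fell below 0.05 in 8 of 16 alternatives, over a range of 1.05e-06 with DESeq2 to 0.162 without model library 59. The log2 fold changes were 1.50, 1.36 and 1.07 for miR-212-3p, miR-132-5p and miR-132-3p. They were 0.83 for miR-9-5p, 0.77 for the abundant miR-21a-5p, 0.50 for miR-187-3p and 0.20 for miR-301a-3p. The remaining values were -0.44 for miR-9-3p and -0.70 for miR-187-5p. miR-21a-5p passed with total counts alone, the authors' totals, no filter and known rows only, miR-212-3p with the authors' totals and no filter, and miR-132-5p, miR-132-3p, miR-9-5p and miR-187-3p with the authors' totals. By log2 fold change miR-146b-5p fell between miR-132-5p and miR-132-3p, and miR-146a-5p between miR-21a-5p and miR-187-3p.

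**Figure D4:**
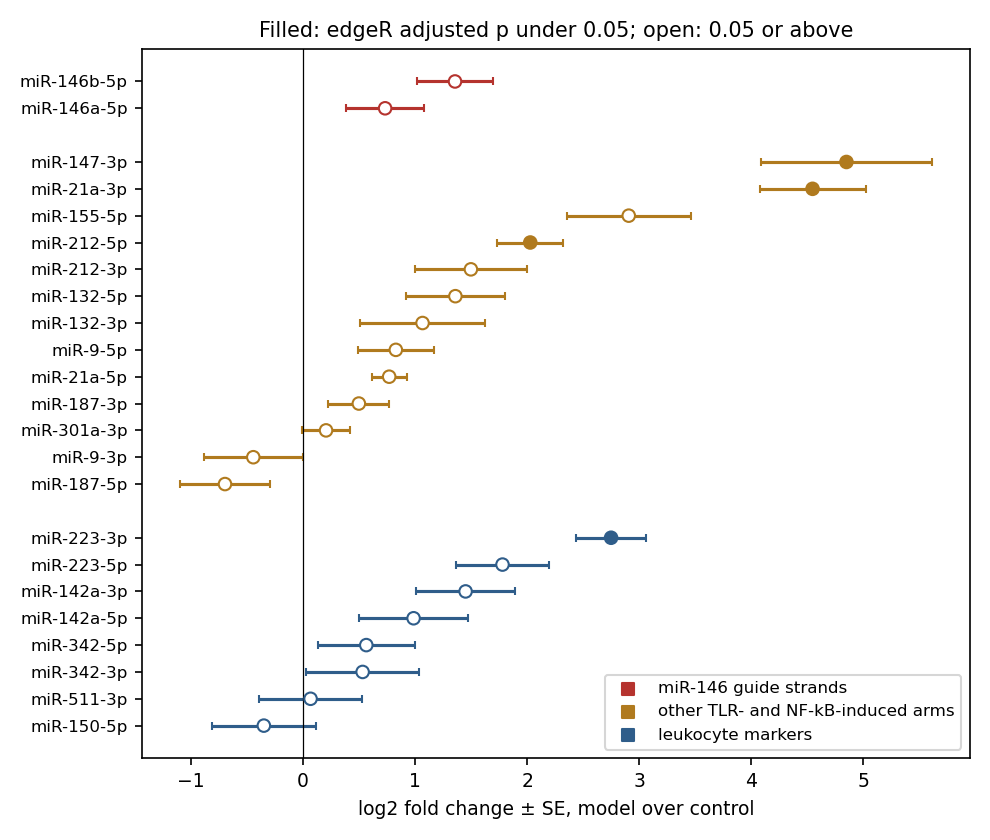
Log2 fold change of model over control with its SE for the miR-146 5p strands (red), the 13 tested arms of the TLR- and NF-kB-induced list (ochre) and the 8 tested leukocyte markers (blue); filled points had an edgeR adjusted p under 0.05. miR-146b-5p (1.36) lies near miR-132-5p (1.36) and miR-142a-3p (1.45), and miR-146a-5p (0.73) near miR-21a-5p (0.77).

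Leukocytes contain much miR-146a, so leukocyte-enriched miRNAs were read beside it. Of 10 named leukocyte arms all were in the table and 8 were tested. By edgeR's adjusted p, 1 of the 8 was called higher, against 1.00% of all tested rows, and 0 were called lower. The median log2 fold change of the 8 was 0.78, against 0.0050 over all tested rows. In 3 of the 8 all model libraries lay above all controls, beside 14.4% of all tested rows. The summed level of the 10 arms was 5180 to 10797 CPM in model and 4779 to 7100 CPM in control libraries. None of the 8 tested markers was at 0 in any library.

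Among model libraries 7 of the 8 leukocyte markers were highest in library 57, as were miR-146a-5p and miR-146b-5p, against 161 of the 499 tested rows. Among control libraries all 8 were highest in library 43, as was miR-146a-5p, against 108 of the 499 tested rows, while miR-146b-5p was highest in control library 45. In model library 56, where both miR-146 5p strands were lowest, 4 of the 8 markers were lowest, against 167 of the 499 tested rows. Of the 13 tested TLR- and NF-kB-induced arms, 7 were highest in library 57 and 3 lowest in library 56 among model libraries. Among control libraries 6 of those 13 were highest in library 43. Lymphocyte-enriched miR-150-5p had 1429, 5840 and 3093 CPM in model libraries 56, 57 and 59, against 5235, 4259 and 3717 CPM in control libraries 43, 44 and 45 (log2 fold change -0.35, edgeR adjusted p = 0.735). Its order among model libraries, 57 over 59 over 56, was that of both miR-146 5p strands, and 17.0% of tested rows shared it.

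That order was shared by 4 of the 8 tested leukocyte markers, among them miR-223-5p and the macrophage arm miR-511-3p. Myeloid miR-223-3p did not share it. It had 2232, 2133 and 2121 CPM in model libraries 56, 57 and 59, against 471, 247 and 246 CPM in control libraries 43, 44 and 45 (log2 fold change 2.75, edgeR adjusted p = 0.0077). Its model libraries lay close together, whereas miR-146a-5p ranged from 2196 to 5417 CPM in the same libraries. The other leukocyte arms had log2 fold changes of 1.78 for miR-223-5p, 1.45 for miR-142a-3p, 0.99 for miR-142a-5p, 0.56 for miR-342-5p, 0.53 for miR-342-3p and 0.07 for the macrophage arm miR-511-3p, and none of these passed. The untested arms, miR-150-3p and miR-511-5p, had at most 2.70 CPM in any library. Of the 8 tested leukocyte arms 7 had a positive log2 fold change with TMM factors, 6 with upper quartile factors and 8 with the authors' library totals. Without model library 57, 5 of the 8 were positive and the median was 0.36. The part of leukocytes in the miR-146 levels was not tested.

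Markers of acinar, islet, erythroid and endothelial cells were read as well, and edgeR with TMM factors on the filtered rows called none of them. The summed acinar list was 50646 to 54275 CPM in model libraries. It was 60514, 60921 and 97164 CPM in control libraries 43, 44 and 45. By edgeR's adjusted p 0 of 8 arms were called, and all 8 log2 fold changes were negative. Their median was -0.49, against 0.0050 over all tested rows and -0.27 over the 99 rows of at least 1000 CPM. Of those 8 arms, 1 was positive with total counts alone, 2 without control library 45 and 7 with the authors' library totals. Called lower were 2 acinar arms with upper quartile factors or no filter on low counts and 1 with DESeq2. The islet list was at 39071 to 52268 CPM in model and 59266 to 81204 CPM in control libraries, and 1 of its 3 tested arms was called lower with RLE or upper quartile factors, with no filter, with known rows only and without control library 43. With the authors' totals 1 islet and 1 endothelial arm were called higher. With TMM factors the islet arms miR-375-3p and miR-184-3p had log2 fold changes of -0.73 and -0.71, and miR-7a-5p had 0.0050. Summed erythroid markers, led by miR-451a, reached 7110 to 12098 CPM in model and 10652 to 13635 CPM in control libraries. Endothelial markers, led by miR-126a-3p, summed to 32211 to 37872 CPM in model and 40568 to 47690 CPM in control libraries. The log2 fold change was -0.36 for miR-126a-3p and 0.12 for miR-126a-5p, the other endothelial arm.

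The known rows with the most similar profile were taken by Pearson's r of log2(CPM + 1) over the 6 libraries, among 370 other tested rows with a mean of at least 10 CPM. These values describe 6 libraries that share the difference between the groups, and such a maximum over many rows is high by selection. For miR-146a-5p they were miR-222-3p (r = 0.930), miR-351-5p (0.923) and miR-350-3p (0.907). For miR-146b-5p they were miR-155-5p (0.965), miR-222-3p (0.948) and miR-25-3p (0.913). The r between miR-146a-5p and miR-146b-5p was 0.857, which put miR-146b-5p at place 8 for miR-146a-5p and miR-146a-5p at place 11 for miR-146b-5p.

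miR-222-3p, the row on both of those lists, had 677, 1017 and 750 CPM in model libraries 56, 57 and 59, against 606, 558 and 579 CPM in control libraries 43, 44 and 45. Like miR-146b-5p it had all model libraries above all controls, with library 57 the highest (log2 fold change 0.49, edgeR adjusted p = 0.244). The profile nearest to miR-146b-5p, that of miR-155-5p, had 377, 1542 and 801 CPM in model libraries 56, 57 and 59, against 173, 82.3 and 107 CPM in control libraries 43, 44 and 45. Its order among model libraries was the same as that of miR-146b-5p, while its highest control was library 43.

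The size of the miR-146 differences depended on the scaling between libraries. The log2 fold change of miR-146a-5p was 0.43 with upper quartile factors, 1.01 with total counts alone and 1.53 with the totals that the authors' RPM values rest on. For miR-146b-5p it was 1.05, 1.66 and 2.21 with those 3 scalings in turn. The median of all tested rows moved along with them, to -0.29, 0.29 and 0.79. Relative to that median, miR-146a-5p lay at 0.71 to 0.74 and miR-146b-5p at 1.33 to 1.42 over TMM, RLE and these 3 scalings. With the authors' totals both strands passed the threshold (edgeR adjusted p = 0.0321 for miR-146a-5p and 0.00188 for miR-146b-5p), as did 121 rows higher in the model group.

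**Figure D5:**
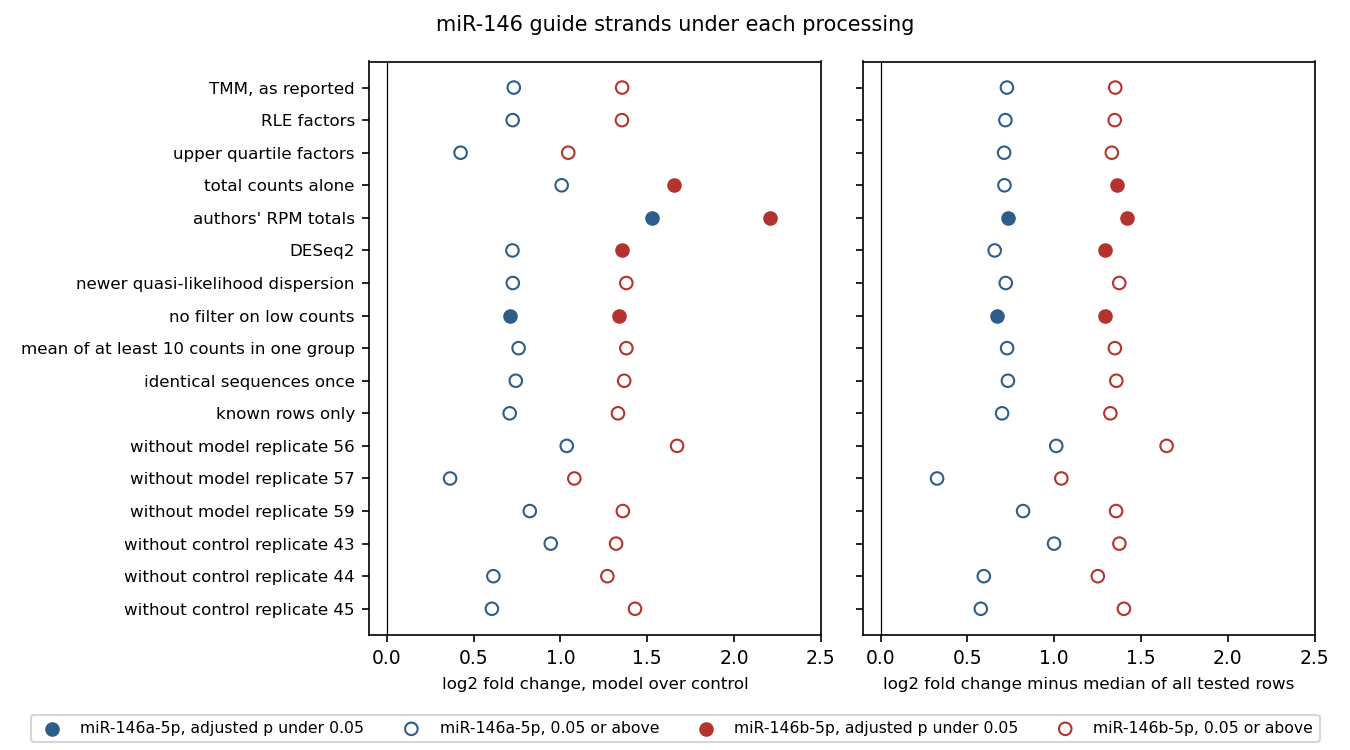
Log2 fold change of miR-146a-5p (blue) and miR-146b-5p (red) under each processing (left) and the same values minus the median over all tested rows of that fit (right); filled points had an adjusted p under 0.05. All values are above 0, and relative to the median they run from 0.32 to 1.01 for miR-146a-5p and from 1.04 to 1.65 for miR-146b-5p, and both ends of each range come from leaving out 1 model library.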

How the data were processed

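The authors deposited 1 table, each row of which is a mature miRNA strand. Its read count columns hold raw counts per library, per the file headers. Its RPM columns were also made by the authors and divide each count by a library total of 22055639 to 27876715, recovered here as a median over rows with 100 counts or more. No source used here says what this total holds. Bowtie2 and GRCm38.p6 stand in the submitters' processing notes without a role. Adapters carried unique molecular identifiers, per the labels' protocols, and no source used here says whether counts were collapsed on them.

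Groups and replicate numbers were read from the sample titles. Counts were filtered with filterByExpr (minimum count 10, minimum total 15) and tested with edgeR 4.0.16 in R 4.3.3 (TMM factors, robust glmQLFit, glmQLFTest, two-sided). P-values were adjusted over all 499 tested rows, with a threshold of 0.05, and the test was checked on simulated data. The simulated rows all had the same dispersion, so that check does not cover the wider spread of the miR-146 5p strands among model libraries. SE is the log2 fold change divided by the square root of F. DESeq2 1.42.0 was an alternative. Intervals and the exact permutation test used SciPy 1.17.1. An arm ratio was to be tested only where both arms averaged 10 counts or more, which neither hairpin reached. Hairpins were placed with RefSeq and GENCODE M21 on GRCm38. The 4 members and all lists were chosen with earlier results of these data known. Named were the members, the list members, the leading markers and the 3 most similar rows for each 5p strand. The strand comparison among hairpins was added after seeing the values.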

Additional observations from a re-analysis of the deposited data

How the results depend on the processing

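Under all 16 alternatives both 5p strands kept a positive log2 fold change, from 0.37 to 1.53 for miR-146a-5p and from 1.05 to 2.21 for miR-146b-5p. The threshold was passed by miR-146a-5p with the authors' RPM totals (1.53) and with no filter on low counts (0.71, adjusted p = 0.0374), and by miR-146b-5p with these (2.21 and 1.34), with DESeq2 (1.36) and under total counts alone (1.66). The cause of the call without a filter was not tested. Over the whole table, 5 rows were called higher and 1 lower. Called higher and lower were 7 and 8 rows with RLE factors, 6 and 39 with upper quartile factors, 17 and 1 with total counts alone, 121 and 2 by the authors' RPM totals, 16 and 15 with DESeq2, 4 and 2 with the newer quasi-likelihood dispersion, 23 and 35 with no filter and 8 and 7 with known rows only. Leaving out 1 library gave 3 to 5 higher and 0 to 5 lower. Of the TLR- and NF-kB-induced arms, 3 were called higher, 2 with the newer quasi-likelihood dispersion, 4 with RLE factors, upper quartile factors or DESeq2, 5 with total counts alone or known rows only, 10 with the authors' RPM totals, 6 with no filter, and 1 to 3 without 1 library. The sign turned for miR-301a-3p with upper quartile factors (-0.089) and for miR-9-3p with the authors' RPM totals (0.28). No paired analysis was possible because the groups share no replicate numbers. Depth limited the 3p strands, at 2 and 7 counts in all, and the test of their ratio to the 5p strands could not be made at a minimum mean of 10 or of 5 counts.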
